A study of Mus musculus with 78 samples.

Results

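The prefrontal cortex was compared with the other dissected cortex of the same mice. The series holds 78 RNA sequencing libraries from several brain regions of 12 mice, and 14 of these entered here: the prefrontal cortex and cortex libraries of the 7 mice that had both. The library labelled prefrontal cortex of animal 23 was left out because its label is in doubt. The mice carried a constitutive CRISPR deletion of Acss2 from exon 3 to exon 7 (KO) or did not (WT), on a C57BL6/J background after backcrossing for 3 generations.

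Animals 4, 5 and 6 were female KO, animal 1 was male KO, animal 11 was female WT, and animals 3 and 12 were male WT, so 4 KO and 3 WT animals each gave 1 library per region. All were single-housed adults that had drunk ethanol in the drinking-in-the-dark paradigm, and no mouse without ethanol entered. Per the labels, the mice were habituated for 1 week and chose between water and 15% ethanol by volume for 2 h on days 1 to 3 and for 4 h on day 4. In the following week ethanol was given without a choice. The deletion is constitutive, so it is present in every cell and not limited to the cortex or to adult life. The labels call the comparison tissue cortex and do not say which area or which layers were taken.

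The cerebral cortex is built of layers. Neurons of the upper layers connect cortical areas, layer 4 receives thalamic input in sensory areas, layer 5 holds neurons that project out of the cortex, and layer 6 holds neurons that project back to the thalamus. The mouse prefrontal cortex lies at the front and along the midline, and its agranular areas have little layer 4. Parvalbumin interneurons are the fast-firing inhibitory cells of the cortex, and their density varies between areas.

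Cortex libraries held 741478 to 1014092 counts (median 901236) and prefrontal cortex libraries 944634 to 1228828 (median 1126290). CPM, counts per 1000000 after scaling for library size and composition, is the unit of single-gene levels here. Sums over a gene list are scaled for library size alone and are also written as CPM. The smallest level taken as measurable, 3 counts, equalled 3.00 to 4.13 CPM in the cortex and 2.37 to 3.10 CPM in the prefrontal cortex. Acss2, the deleted gene, had 3 to 12 counts (3.46 to 12.2 CPM) in the 8 KO libraries and 43 to 64 counts (44.5 to 64.3 CPM) in the 6 WT libraries, and separated the genotypes in each region. Its log2 fold change between regions was -0.13 ± 0.21 (SE, adjusted p 0.659, edgeR). Xist and Ddx3y matched the labelled sex in all 14 libraries. The cortical excitatory neuron list summed to 6707 to 8735 CPM in the cortex and 4355 to 8299 CPM in the prefrontal cortex. Most of this sum came from Camk2a and Nrgn, and it does not describe each member. Emx1 of this list was at 19.4 to 35.97 CPM in the cortex and 6.11 to 16.2 CPM in the prefrontal cortex.

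Several prefrontal libraries stood apart in markers of neighbouring tissue. Those of animals 3 and 11, both WT, held markers of olfactory bulb projection neurons. Cdhr1, a cadherin-related protein of mitral and tufted cells, had 227 and 187 counts there, Doc2g had 55 and 77, Eomes 52 and 46, and Tbx21 13 and 10. The 4 markers summed to 328 and 261 CPM in them, against 6.22 to 41.3 CPM in the other 5 prefrontal libraries and 6.28 to 29.96 CPM in the cortex. Eomes and Tbx21 were at 0 in 4 and 5 of those 5 prefrontal libraries. Markers of migrating neuroblasts were also highest in these libraries, at 522 and 234 CPM.

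The prefrontal libraries of animals 1 and 5, both KO, were highest in striatal markers. The 17 genes of that list summed to 2357 and 3217 CPM there, against 662 to 1274 CPM in the other 5 and 606 to 1102 CPM in the cortex. These sums were 22.7% and 39.2% of the sum in the dorsal striatum of the same animals. Oligodendrocyte markers were highest in the prefrontal libraries of animals 4, 5 and 6, all female KO, with 8745, 12192 and 7435 CPM. The cortex library of animal 4 also had 7502 CPM of them and, alone among the 14, a large amount of choroid plexus RNA, with 1107 counts of Ttr, the transthyretin carrier made by that tissue. Results that move with olfactory bulb or striatal markers are given also without animals 1, 3, 5 and 11. Animals 4, 6 and 12 remain. This smaller set still holds the prefrontal libraries of animals 4 and 6, which are high in oligodendrocyte markers. The cortex library of animal 4, with its choroid plexus RNA, is also kept.

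**Figure D1:**
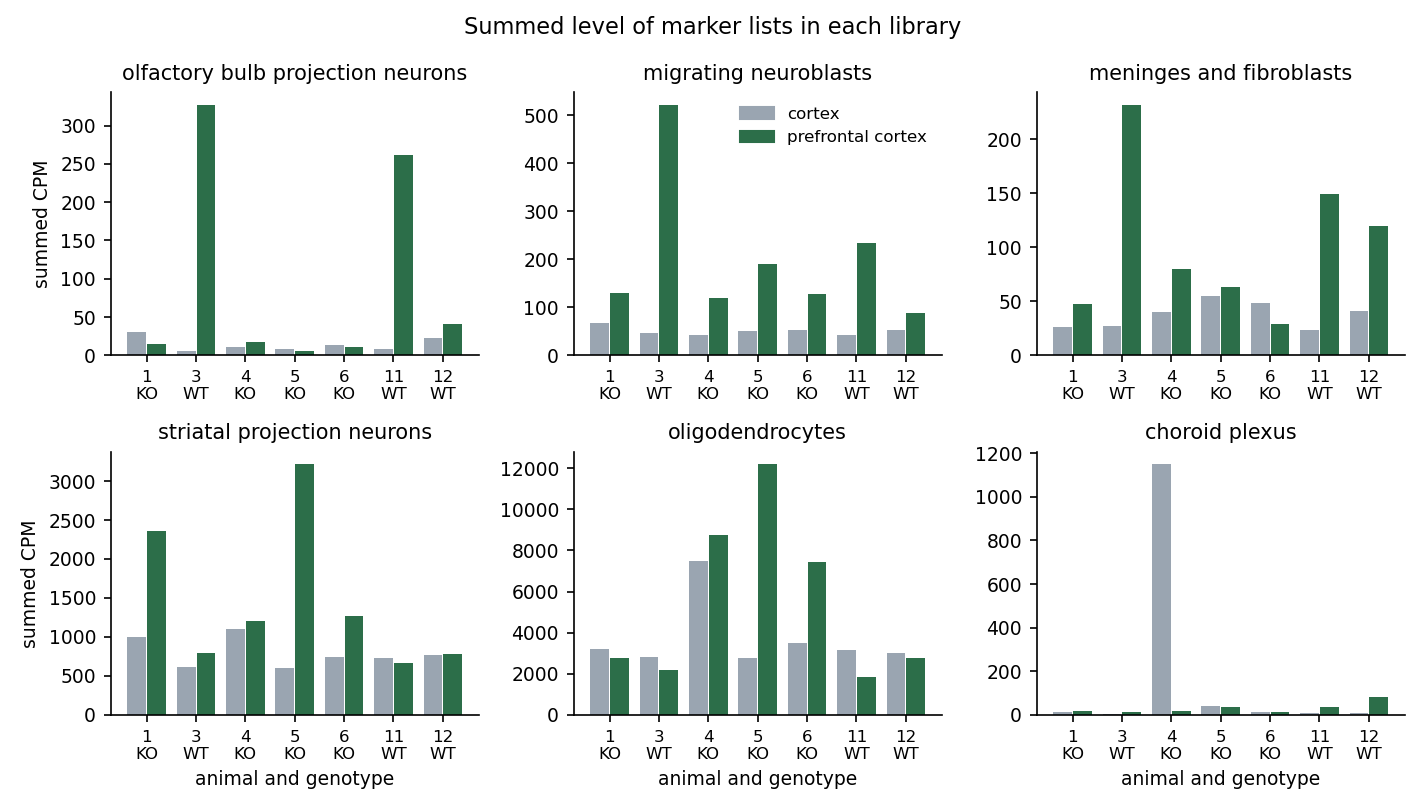
Summed CPM of 6 marker lists (vertical axis) in the cortex (grey) and prefrontal cortex (green) library of each of 7 animals, with genotype under the animal number. Olfactory bulb markers stand out in the prefrontal libraries of animals 3 and 11, striatal markers in those of animals 1 and 5, and choroid plexus markers in the cortex library of animal 4.

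The regions differed widely. With the animal as a block, edgeR's quasi-likelihood test called 3519 of 10049 genes, 35% of those tested, at an adjusted p under 0.05. Of these, 1787 genes (17.8%) were higher and 1732 (17.2%) lower in the prefrontal cortex. A fold change of at least 2 was found in 253 of the higher and 165 of the lower genes. In 373 genes (3.71%) all 7 prefrontal libraries lay above all 7 cortex libraries, and in 520 (5.17%) all lay below. Tested against a fold of 1.5 instead of no change, 292 genes (2.91%) were called. Without animals 1, 3, 5 and 11 the count was 2326 of 10198 genes (22.8%). Prefrontal cortex libraries had the higher median depth, with overlapping ranges and animal 4 the other way, and their 10 most counted genes took 3.51% to 6.75% of counts, against 5.31% to 9.45% in the cortex. Exonic length and GC content together, as a smooth trend, accounted for 20.8% of the spread (variance) in log2 fold changes between the regions, and its part in single results was not tested beyond the corrected fit in the closing section.

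The 14 leading genes in each direction are those with the largest fold change among genes that were called, moved the same way in all 7 animals and averaged at least 20 CPM in the higher region. Their fold changes chose them and are given as a description. Each of the 28 was also called in the same direction without animals 1, 3, 5 and 11, with log2 fold changes from 1.25 to 2.71 for the higher genes and from -3.86 to -1.87 for the lower. The animals that remain took part in the choice of genes, so this is no separate test. In 11 of the 14 higher and 12 of the 14 lower genes the regions did not overlap, against 3.71% and 5.17% of all genes. The choice of genes favours such separation, so it is no added support. Within-animal log2 ratios below carry a prior count of 2, which shrinks the ratios of low counts.

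Among the higher genes, several encode matrix, adhesion or guidance proteins. Col6a1, a chain of type VI collagen (chromosome 10, 76708792 to 76726168, minus strand, GRCm38), ranged from 14.5 to 63.96 CPM in the cortex (median 24.8) and from 98.01 to 321 CPM in the prefrontal cortex (median 167). No library of one region reached the other, and its log2 fold change was 2.69 ± 0.19 (SE, adjusted p 2.47e-07, edgeR). Cdh13, a cadherin anchored to the membrane by a lipid (chromosome 8, 118283733 to 119324921, plus strand, GRCm38), averaged 32.5 ± 13.3 CPM in the cortex and 149 ± 47.3 CPM in the prefrontal cortex (SD, n = 7 each). In animal 11 its log2 ratio was 0.58, the lowest of the 7, and in animal 3 it was 3.14, the highest. Spon1, the matrix protein F-spondin, was at 29.3 ± 9.22 and 125 ± 34.97 CPM, and the regions did not overlap. The immunoglobulin adhesion protein Sdk2 had a log2 fold change of 2.56, the semaphorin Sema5b 2.09, and Dpysl5, a cytosolic protein of growing axons, 2.21. Prss12, the synaptic protease neurotrypsin, had 2.17.

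Other leading genes mark neuron classes. Syt6, a synaptotagmin of layer 6 neurons (chromosome 3, 103575231 to 103645569, plus strand, GRCm38), ranged from 5.77 to 17.99 CPM in the cortex (median 10.9) and from 30.01 to 133 CPM in the prefrontal cortex (median 45.1). The lowest prefrontal library lay above the highest cortex library, and the log2 fold change was 2.41 ± 0.23 (SE). Crym, a thyroid hormone binding protein on the layer 5 list (chromosome 7, 120186380 to 120202111, minus strand, GRCm38), ranged from 5.45 to 61.99 CPM in the cortex (median 25.4) and from 44.6 to 213 CPM in the prefrontal cortex (median 126). Its ranges overlapped between animals, while within each animal the prefrontal cortex was higher, by a log2 ratio of 1.31 to 3.45. Nos1, the neuronal nitric oxide synthase, averaged 21.3 ± 9.23 and 93.3 ± 24.4 CPM (SD, n = 7 each), with no overlap. Zic1, a zinc finger factor of the medial forebrain and septum, averaged 11.2 ± 5.09 and 56.3 ± 25.1 CPM. It was highest in the prefrontal library of animal 1, at 101 CPM.

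Calb2 and Ndnf depended most on single libraries. Calb2, the calcium buffer calretinin of several interneuron classes (chromosome 8, 110137502 to 110168210, minus strand, GRCm38), was at 175 and 191 CPM in the prefrontal libraries of animals 3 and 11, and at 14.8 to 42.6 CPM in the other 5. All 7 lay above the cortex, where it ranged from 4.36 to 13.8 CPM. Its log2 fold change was 2.65 ± 0.40 (SE) and was 1.25 without animals 1, 3, 5 and 11. Ndnf, a secreted protein of layer 1 interneurons, was at 135 CPM in animal 3 and 90.3 CPM in animal 1 against 15.04 to 48.6 CPM elsewhere, and its log2 fold change of 2.22 became 1.69 without the 4 animals. The part of the olfactory bulb markers in these differences was not tested. C4b, a complement component, rose by 2.22 ± 0.21 (SE) on the log2 scale, and its near-identical neighbour C4a may share its reads.

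Among the lower genes, Tmem215, a transmembrane protein, had the largest fall (chromosome 4, 40472180 to 40477168, plus strand, GRCm38). It ranged from 30.98 to 57.8 CPM in the cortex (median 41.5) and from 0 to 12.96 CPM in the prefrontal cortex (median 0.852), and 3 of the 7 prefrontal libraries had no count of it. The log2 fold change was -3.63 ± 0.40 (SE, adjusted p 5.40e-06, edgeR). Aldh1a1, an enzyme that makes retinoic acid and also oxidises acetaldehyde (chromosome 19, 20492715 to 20643465, plus strand, GRCm38), ranged from 64.2 to 126 CPM in the cortex (median 93.4) and from 4.26 to 34.4 CPM in the prefrontal cortex (median 13.96). It was lower in the prefrontal cortex of every animal, by a log2 ratio of -3.85 to -1.60, and its log2 fold change was -2.52 ± 0.24 (SE). Ddit4l, an inhibitor of mTORC1 signalling, averaged 54.2 ± 10.4 and 9.64 ± 11.4 CPM (SD, n = 7 each). Its prefrontal level in animal 11, 34.8 CPM, stood above the 1.02 to 9.60 CPM of the other 6.

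The other leading lower genes were of mixed kinds. Hr, the nuclear receptor corepressor hairless, averaged 69.6 ± 16.8 and 18.04 ± 7.62 CPM (SD, n = 7 each) with no overlap. Rassf3, a Ras association domain protein, averaged 131 ± 29.9 and 34.3 ± 14.5 CPM, also with no overlap. Robo3, a receptor for axon guidance, had a log2 fold change of -2.00, and the cerebellin Cbln4, a secreted organiser of synapses, -2.08. Cpne9, a copine, was at 98.01 CPM in the prefrontal library of animal 11 and at 6.82 to 37.2 CPM in the other 6. Krt12 (a keratin), Avpi1 and Medag had log2 fold changes of -2.46, -1.95 and -1.95, each with no overlap between regions.

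**Figure D2:**
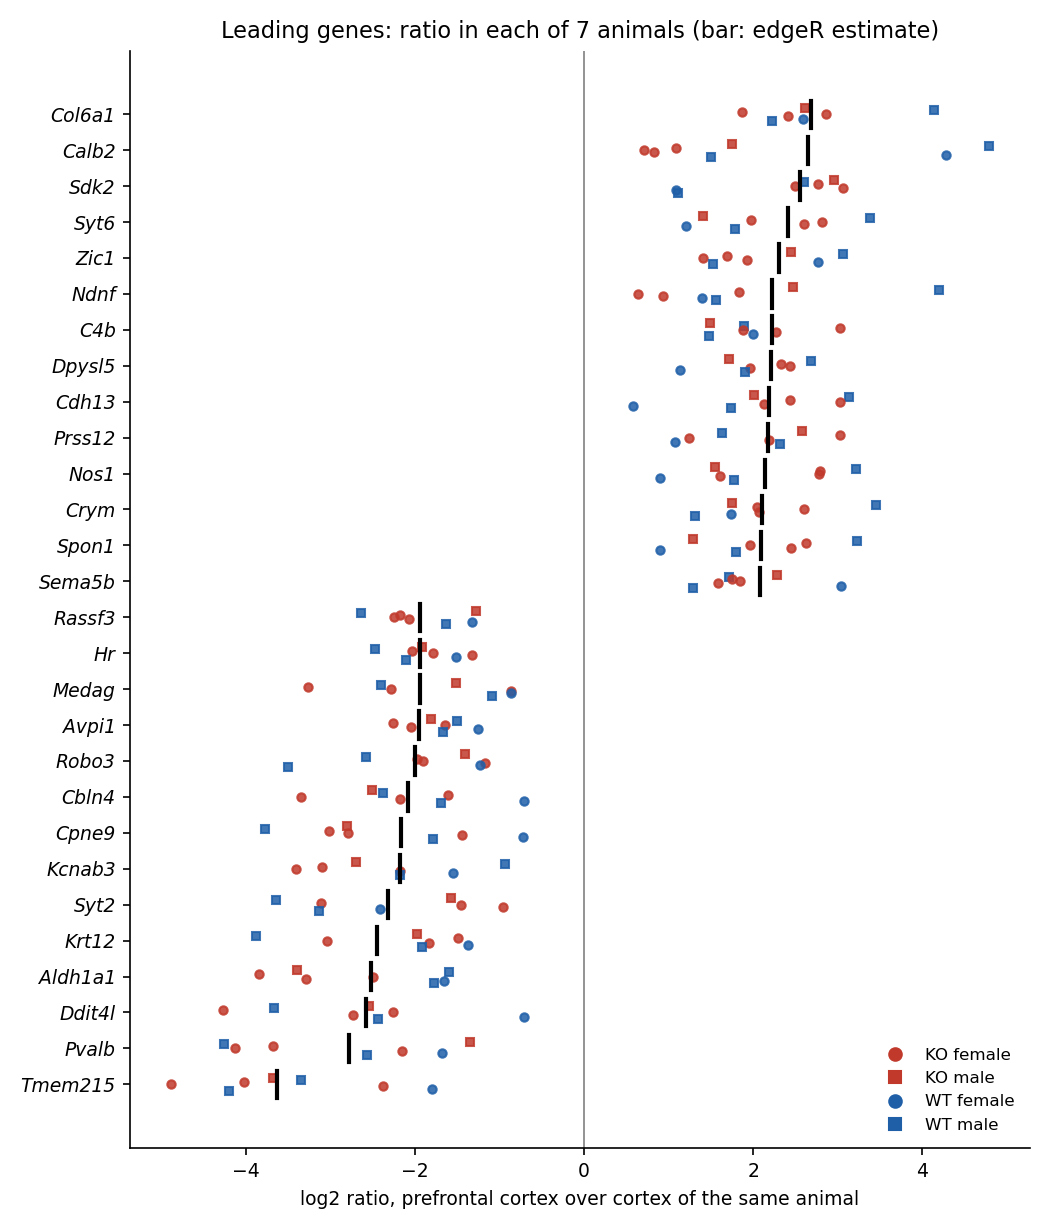
Log2 ratio of prefrontal cortex over cortex in each of 7 animals (horizontal axis) for the 14 leading higher and 14 leading lower genes (vertical axis). Black bars are edgeR estimates, circles female, squares male, red KO and blue WT; every point lies on its gene's side of 0, and Calb2 and Ndnf have the widest spread among the higher genes.

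Layer genes moved in opposite directions. Here and below, lists of genes are described by their counts and median, to be read beside the 17.8% higher and 17.2% lower among all genes. Without the 4 animals 22.8% of all genes were called, without animals 1 and 5 24.5%, and without animals 3 and 11 31.4%. The median log2 fold change of all 10049 genes was 0.02. Of the 10 layer 2/3 genes tested, 7 fell and 2 rose, with a median of -0.59. Cux1, a homeodomain factor of upper layer neurons, ranged from 125 to 170.5 CPM in the cortex (median 139) and from 38.7 to 94.04 CPM in the prefrontal cortex (median 58.6). The regions did not overlap, and the log2 fold change was -1.18 ± 0.12 (SE, adjusted p 3.57e-06, edgeR). Its relative Cux2 had a log2 fold change of -0.93 ± 0.16 (SE), and the prefrontal library of animal 11, at 220.3 CPM, lay near the top of the cortex range of 101 to 237 CPM. The POU factors Pou3f2 and Pou3f3 had log2 fold changes of -1.16 and -0.50, and Rasgrf2, an exchange factor for Ras and Rac, -0.68. Matn2, a matrix protein, went the other way, with 23.3 ± 2.25 CPM in the cortex and 60.7 ± 21.02 CPM in the prefrontal cortex (SD, n = 7 each).

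Of 3 layer 4 genes tested, 2 fell and none rose. Rorb, the orphan nuclear receptor that marks layer 4, ranged from 55.8 to 77.96 CPM in the cortex (median 63.1) and from 9.37 to 42.9 CPM in the prefrontal cortex (median 14.5). No prefrontal library reached the cortex range, and the log2 fold change was -1.79 ± 0.19 (SE, adjusted p 3.59e-06, edgeR). The potassium channel Kcnh5 had -0.82 ± 0.27 (SE) with an adjusted p of 0.0252 and was higher in the prefrontal cortex of animal 3. Its call was lost when animal 1, 4, 11 or 12 was left out (adjusted p 0.0554 to 0.0727, edgeR), with log2 fold changes of -0.83 to -0.66. Scnn1a, Rspo1 and Endou had too few counts to pass the filter and were not tested. Of these, Rspo1 was at 7.89 to 42.3 CPM in the cortex and 0 to 8.70 CPM in the prefrontal cortex. Its log2 ratio was -3.15 to -1.11 within animals, that of Scnn1a -0.72 to -0.16 and that of Endou -3.60 to 0.17.

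Deep layer genes rose more often than they fell in the prefrontal cortex. Of 12 layer 5 genes tested, 6 rose and 1 fell, with a median of 0.40, and without animals 1, 3, 5 and 11 the counts were 5 and 1. Fezf2, the factor that specifies neurons projecting below the cortex, was at 11.3 to 24.98 CPM in the cortex. In the prefrontal cortex it was at 45.2, 20.8, 99.9, 67.2, 59.3, 17.01 and 55.9 CPM in animals 1, 3, 4, 5, 6, 11 and 12. It was therefore higher in 6 of 7 animals, with the libraries of animals 3 and 11 under the highest cortex library, and the log2 fold change was 1.58 ± 0.24 (SE, adjusted p 0.000105, edgeR).

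Bcl11b, another factor of these neurons that is also high in the striatum, was at 27.3 to 65.5 CPM in the cortex and at 225, 184, 151, 175, 125, 35.6 and 139.7 CPM in the same order of animals. Animal 11 again did not share the rise. The log2 fold change was 1.68 ± 0.22 (SE), and 1.46 without the 4 animals. Tcerg1l and Ldb2, the latter a cofactor of LIM domain factors, rose by 1.20 and 0.69. The call of Tcerg1l was lost without the 4 animals (log2 fold change 0.91, adjusted p 0.150, edgeR). Hsd11b1, which regenerates active glucocorticoid, was the member that fell, from 23.8 ± 8.92 to 6.99 ± 3.78 CPM (SD, n = 7 each), and the regions did not overlap.

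Of 6 genes of layer 6 and 6b tested, 4 rose and none fell, with a median of 1.11. Beside Syt6, these were Ccn2, a matrix protein of layer 6b, Sulf1, a sulfatase acting on heparan sulfate, and Tle4, a corepressor of neurons projecting to the thalamus. Their log2 fold changes were 1.51 ± 0.27, 1.46 ± 0.32 and 0.76 ± 0.21 (SE). Each was higher in 6 of 7 animals. The exception was animal 12 for Ccn2 and animal 11 for Sulf1 and Tle4. The mean log2 ratio over the tested genes of this list was 0.16, 0.23 and 0.26 in animals 1, 11 and 12. It was 1.24, 1.33, 2.22 and 1.39 in animals 3, 4, 5 and 6. Foxp2, Ntsr1, Osr1, Car12, Oprk1, Nxph4 and Moxd1 had too few counts to be tested. With each library's striatal marker score as a covariate, the adjusted p of Sulf1 was 0.0944 and that of Tle4 0.275 (edgeR), and Tle4 also lost its call without animals 1 and 5 (adjusted p 0.0972).

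**Figure D3:**
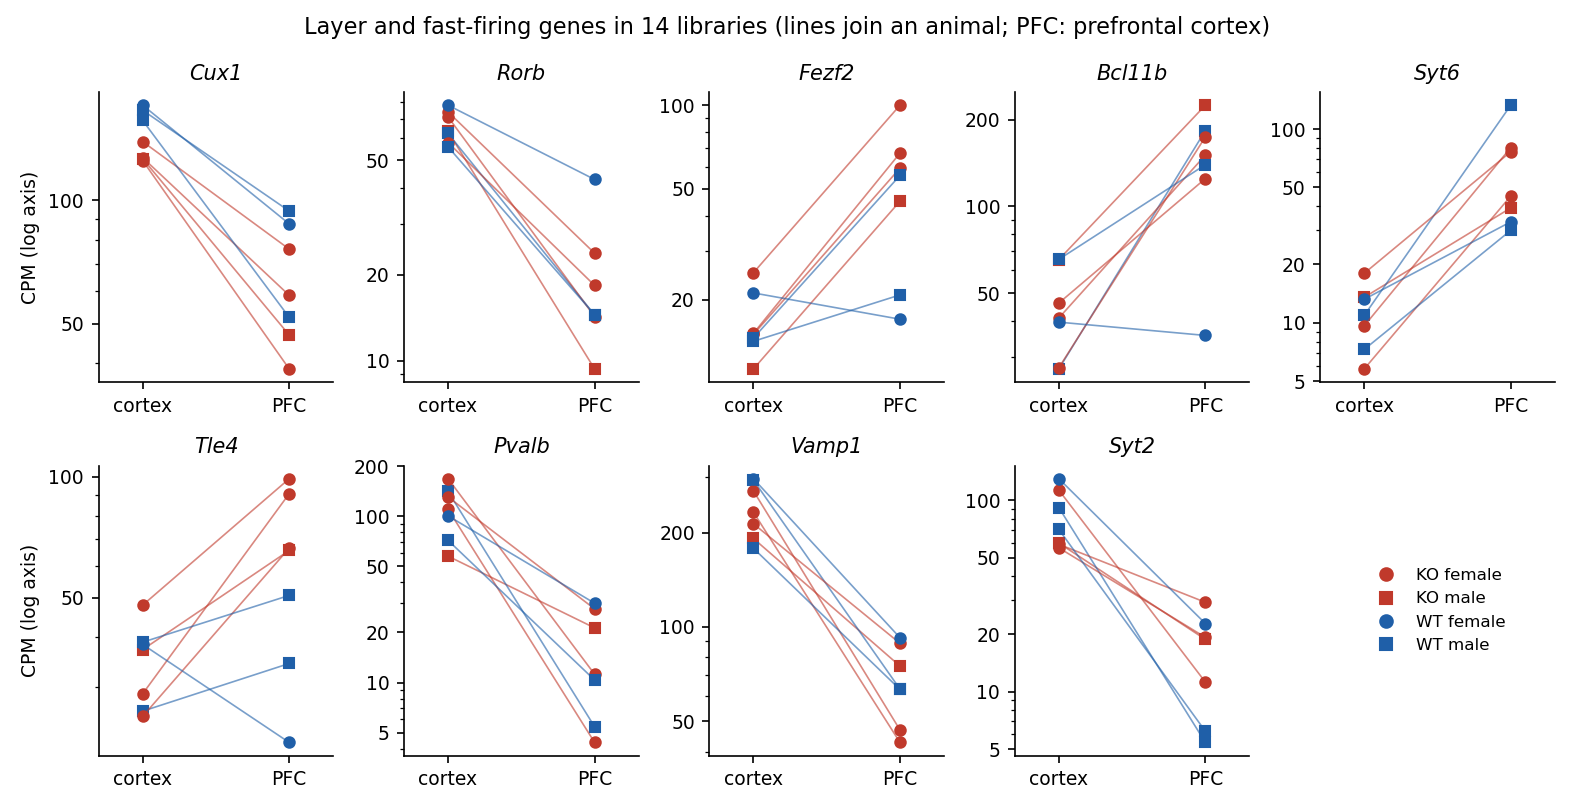
CPM on log axes in the cortex and the prefrontal cortex (PFC) for 6 layer genes and 3 fast-firing genes, with a line joining the libraries of an animal. Cux1, Rorb, Pvalb, Vamp1 and Syt2 fall along every line, Syt6 rises along every line, and the line of animal 11 (blue circle) falls for Fezf2, Bcl11b and Tle4.

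Genes of fast-firing axons and synapses were lower as a group. Of 18 tested, 14 fell and none rose, with a median log2 fold change of -0.90. The mean over these genes was below 0 in each of the 7 animals, from -1.49 in animal 4 to -0.64 in animal 1. Without animals 1, 3, 5 and 11, 15 fell and none rose. Pvalb, the calcium buffer parvalbumin of fast-firing interneurons (chromosome 15, 78191114 to 78206400, minus strand, GRCm38), ranged from 57.5 to 168 CPM in the cortex (median 110.04) and from 4.36 to 29.97 CPM in the prefrontal cortex (median 11.2). The regions did not overlap, and the log2 fold change was -2.78 ± 0.28 (SE, adjusted p 3.03e-06, edgeR), which is 6.87-fold lower. In bulk tissue, fewer cells of a type and less RNA per cell cannot be told apart.

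Several genes of transmitter release, channels and axons on this list were also lower. Which cells their RNA came from was not tested. Vamp1, the synaptic vesicle protein synaptobrevin 1, ranged from 178 to 297 CPM in the cortex (median 232) and from 42.8 to 92.3 CPM in the prefrontal cortex (median 63.3). It did not overlap between regions, and its log2 fold change was -1.83 ± 0.15 (SE). Syt2, the fast calcium sensor of release, averaged 82.8 ± 29.2 and 16.1 ± 8.84 CPM (SD, n = 7 each), a log2 fold change of -2.32 ± 0.26 (SE). Of the channels, the sodium channel Scn1a had a log2 fold change of -1.14 with no overlap. Kcnab3, a potassium channel beta subunit, averaged 141 ± 28.9 and 34.5 ± 29.8 CPM, and its prefrontal level was highest in animal 3, at 91.3 CPM. Nefm, the medium neurofilament chain of large axons, averaged 377 ± 94.99 and 135 ± 30.1 CPM, with a log2 fold change of -1.46 and no overlap.

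Perineuronal nets are matrix coats found mostly around fast-firing interneurons, and the net and matrix genes tested moved in both directions. Of 10 tested, 6 rose and 1 fell. Without animals 3 and 11, 6 rose and 3 fell, where 31.4% of all genes were called. Hapln1, Sema3a and Bcan were not called in the full set, with log2 fold changes of -0.35, -0.36 and -0.02. Acan, Tnc, Has1, Has2, Has3 and Adamts5 had too few counts to be tested. The member that fell in the full set was Hapln4, a link protein of nets around large synapses, at 149 ± 48.1 and 56.3 ± 19.97 CPM (SD, n = 7 each, adjusted p 4.11e-06, edgeR). The proteoglycan Vcan averaged 10.8 ± 3.53 and 27.1 ± 7.90 CPM, and the net protein Tnr 103 ± 29.5 and 184 ± 22.1 CPM, each with no overlap. The link protein Hapln2 and the protease Adamts4, both also made by oligodendrocyte lineage cells, had log2 fold changes of 1.30 and 1.04. With the striatal score as a covariate their adjusted p was 0.0702 and 0.191 (edgeR). Ncan, the proteoglycan neurocan, rose by 0.39, and its call was lost without the 4 animals (log2 fold change 0.25, adjusted p 0.155, edgeR).

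Single interneuron genes moved in both directions, while Sst, Lhx6 and Adarb2, which mark interneuron classes, were not called. Of 15 interneuron genes tested, 4 rose and 5 fell, and without animals 1, 3, 5 and 11 the counts were 4 and 3. Lamp5, a membrane protein of neurogliaform interneurons and upper layer neurons, ranged from 224 to 508 CPM in the cortex (median 346) and from 50.6 to 168 CPM in the prefrontal cortex (median 93.7), a log2 fold change of -1.81 ± 0.18 (SE), without overlap. Vip, the peptide of another interneuron class, averaged 61.6 ± 12.97 and 29.8 ± 8.29 CPM (SD, n = 7 each), also with no overlap. Reln, the secreted glycoprotein reelin, rose by 0.93 ± 0.17 (SE) in all 7 animals, most in animals 3 and 11, at log2 ratios of 1.90 and 1.38. Calb2 and Reln were highest in the prefrontal libraries of animals 3 and 11, and Ndnf in that of animal 3, the libraries with olfactory bulb markers.

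Regulators that pattern cortical areas fell more often than they rose. Of 16 tested, 6 fell and 2 rose, and without the 4 animals 4 fell and 0 rose of 15. Emx1, a homeodomain factor of the dorsal forebrain, averaged 28.4 ± 5.82 and 9.65 ± 3.65 CPM (SD, n = 7 each), a log2 fold change of -1.55 ± 0.23 (SE), without overlap. Nr2f1, which sets the identity of posterior sensory areas, was at 89.9 to 156 CPM in the cortex and 40.9 to 90.7 CPM in the prefrontal cortex. It fell in 6 of 7 animals and was level in animal 11, with a log2 ratio of 0.01, and the log2 fold change was -0.78 ± 0.16 (SE, adjusted p 0.00120, edgeR). With the striatal score as a covariate its adjusted p was 0.0551. Id2, an inhibitor of basic helix-loop-helix factors, and the cadherin Cdh6 had log2 fold changes of -0.92 and -0.83, lower in all 7 animals. The guidance ligand Efna5 (-0.84) and the activity-dependent factor Mef2c (-0.33) lost their call without the 4 animals (log2 fold changes -0.68 and -0.24, adjusted p 0.0659 and 0.122, edgeR).

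Genes of the retinoic acid pathway, known for a gradient along the cortex, were split, with 3 of 11 higher and 3 lower. Beside Aldh1a1 and Cbln4, the cerebellin Cbln2 had a log2 fold change of -0.69 ± 0.19 (SE), and its call was lost without the 4 animals (log2 fold change -0.56, adjusted p 0.114, edgeR). Meis2, a homeodomain factor, rose in all 7 animals. It ranged from 64.7 to 169 CPM in the cortex (median 92.7) and from 142 to 608 CPM in the prefrontal cortex (median 219.9), with the highest value in animal 3, and its log2 fold change of 1.19 was 0.71 without the 4 animals. The receptor Rarb, also a striatal gene, was at 40.04 and 38.4 CPM in the prefrontal libraries of animals 1 and 5 and at 7.24 to 16.3 CPM in the other 5. Its adjusted p of 0.0168 became 0.397 without animals 1 and 5 (edgeR), and 0.0868 and 0.0741 without animal 1 or animal 5 alone.

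Monoamine and acetylcholine receptor genes were called at a share near that of all genes (35%). Of 17 tested, 5 rose and 2 fell, and without animals 1, 3, 5 and 11 the counts were 3 and 1. Adra2a, the alpha 2A adrenoceptor through which noradrenaline acts on prefrontal networks, was at 4.13 to 20.3 CPM in the cortex and 9.72 to 55.4 CPM in the prefrontal cortex. It was higher in all 7 animals, with a log2 fold change of 1.35 ± 0.20 (SE, adjusted p 8.50e-05, edgeR). Adra1a, another adrenoceptor, rose from 6.97 ± 1.93 to 15.5 ± 5.06 CPM (SD, n = 7 each) with no overlap, and its log2 fold change of 1.15 was 1.04 without the 4 animals, where it missed the threshold (adjusted p 0.0861, edgeR). The nicotinic receptor subunits Chrna4 and Chrnb2, which form the main high affinity receptor of the brain, had log2 fold changes of 1.41 and 0.57, each higher in 6 of 7 animals with animal 11 the exception. The muscarinic receptor Chrm3 averaged 86.5 ± 13.7 and 48.03 ± 11.7 CPM, lower with no overlap. Drd1, the D1 dopamine receptor, was at 94.3 and 59.6 CPM in the prefrontal libraries of animals 5 and 1 and at 4.05 to 36.7 CPM in the others, and its adjusted p of 0.00602 became 0.141 without those animals (edgeR).

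Activity-induced genes were called about as often as all genes (35%). Of 16 tested, 2 rose and 3 fell. Arc, a synaptic protein induced by activity, averaged 183 ± 67.9 and 79.2 ± 31.6 CPM (SD, n = 7 each), lower in all 7 animals with a log2 fold change of -1.19 ± 0.18 (SE, adjusted p 0.000121, edgeR). Egr1, a transcription factor, and Homer1, a scaffold of excitatory synapses, also fell, with log2 fold changes of -0.55 ± 0.11 and -0.56 ± 0.10 (SE). The nuclear receptor Nr4a3 rose by 1.47 ± 0.26 (SE) in 6 of 7 animals, with animal 11 the exception, and the AP-1 factor Fosl2 by 0.81 ± 0.17 (SE). The labels do not give the time between the last drinking session and dissection.

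**Figure D4:**
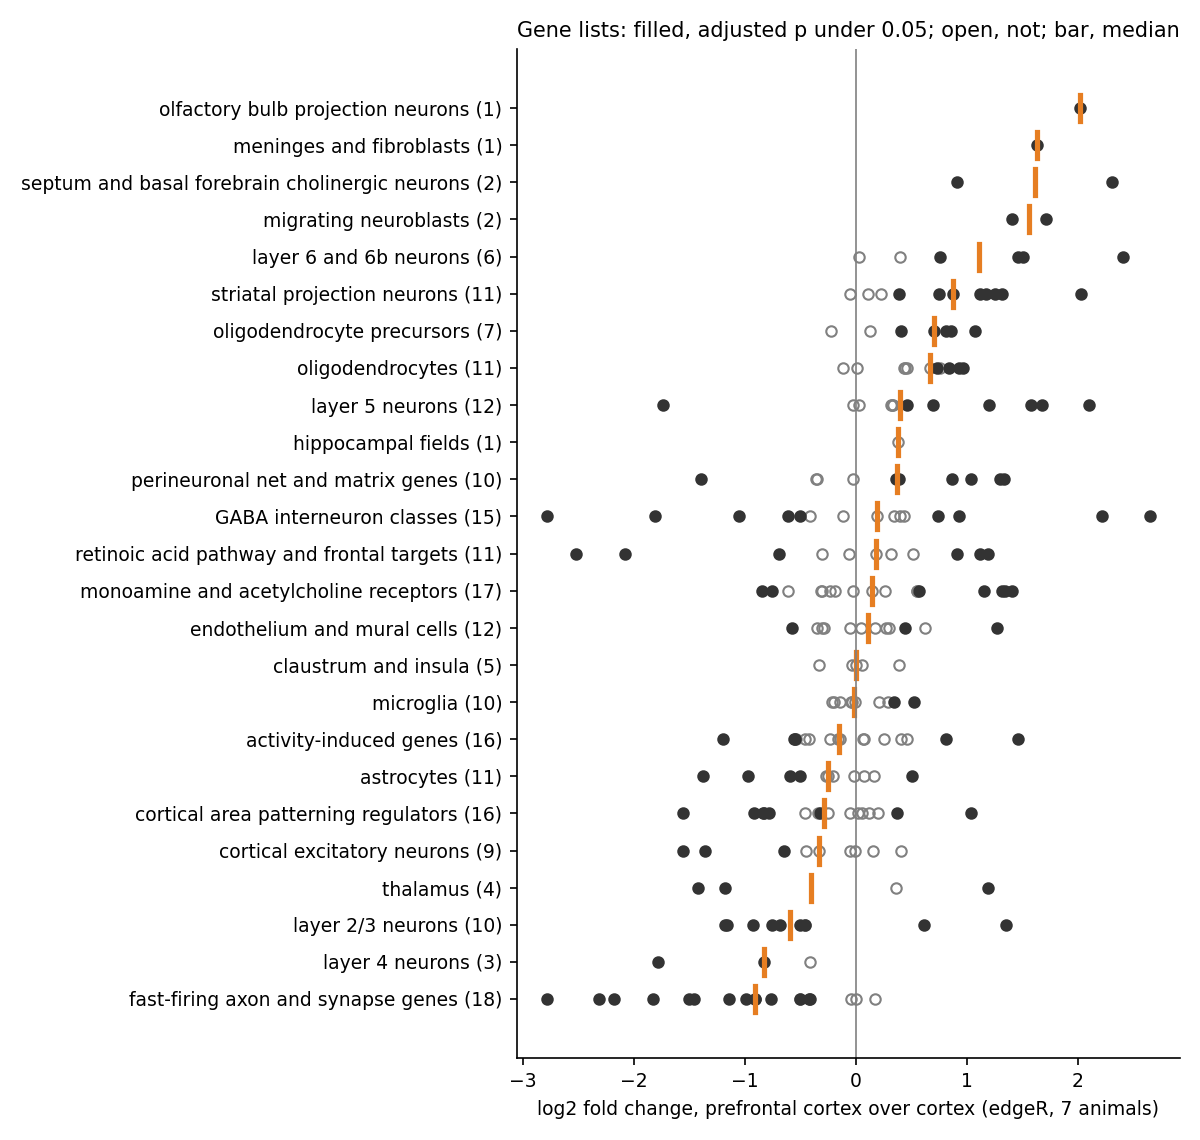
Log2 fold change of prefrontal cortex over cortex (horizontal axis) for every tested member of 25 gene lists (vertical axis, members tested in brackets), ordered by median (orange bar). Filled points have an adjusted p under 0.05; fast-firing, layer 4 and layer 2/3 genes lie lowest, and lists of layer 6, striatal and oligodendrocyte lineage genes lie above 0.

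Markers of other cells moved with region as well, and their part in the results above was not tested beyond the values given. Of 11 striatal genes tested, 8 rose and none fell, with a median of 0.88. Without animals 1 and 5, 2 rose and 1 fell, where 24.5% of all genes were called. Rgs9, a regulator of G protein signalling in striatal neurons, was at 146 and 103 CPM in the prefrontal libraries of animals 5 and 1 and at 8.10 to 63.2 CPM in the others, and its log2 fold change was 2.03 ± 0.40 (SE). The peptide precursors Penk and Tac1 and the phosphodiesterase Pde10a lost their calls without animals 1 and 5 (adjusted p 0.0565, 0.325 and 0.0687, edgeR), and Tac1 also without animal 1 alone (adjusted p 0.0684). Adcy5, the main striatal adenylyl cyclase, had a log2 fold change of 0.75 and 0.38 without the 4 animals.

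Of 11 oligodendrocyte genes, 4 rose and none fell. Cldn11, a tight junction protein of myelin, was at 259, 345 and 207 CPM in the prefrontal libraries of animals 4, 5 and 6 and at 32.4 to 85.2 CPM in the other 4. Its log2 ratio was -1.14 in animal 11, and its log2 fold change was 0.93 ± 0.27 (SE, adjusted p 0.0143, edgeR). The calls of Cldn11, Fa2h, Ermn and Trf were all lost without animals 1 and 5, where no gene of this list was called. Leaving out animal 4, 5 or 6 alone gave adjusted p-values of 0.0557 to 0.0687 for Cldn11, 0.0668 to 0.139 for Fa2h and 0.0681 to 0.131 for Trf, and leaving out animal 5 or 6 gave 0.148 and 0.113 for Ermn (edgeR). Without animals 1, 3, 5 and 11, a set that keeps animals 4 and 6, 8 were called higher. In WT animals alone the log2 fold changes of Cldn11, Fa2h and Trf were -0.10, -0.11 and -0.04.

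Oligodendrocyte precursor genes rose more evenly, 5 of 7 tested. Pdgfra, the growth factor receptor of these cells, ranged from 21.98 to 42.8 CPM in the cortex (median 33.5) and from 43.4 to 69.8 CPM in the prefrontal cortex (median 59.6). The regions did not overlap, and the log2 fold change was 0.81 ± 0.13 (SE, adjusted p 0.000225, edgeR), and 0.97 without the 4 animals. The proteoglycan Cspg4 rose by 1.07, the receptor Gpr17 by 0.70 and the lineage factor Olig1 by 0.41, each in all 7 animals. Sox10, another lineage factor, rose by 0.86 in 6 of 7.

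Of 11 astrocyte genes, 4 fell and 1 rose, and without animals 1, 3, 5 and 11 the counts were 4 and 0. S100b, a calcium-binding protein, averaged 199.97 ± 56.6 and 78.2 ± 31.7 CPM (SD, n = 7 each), and Aldoc, a glycolytic aldolase, 1236 ± 184 and 642 ± 173 CPM. Both fell with no overlap, least in animal 11, at log2 ratios of -0.06 and -0.15. Gjb6 (a connexin) and Aldh1l1 (a folate enzyme) had log2 fold changes of -0.50 ± 0.13 and -0.59 ± 0.16 (SE). Gfap, the glial filament, rose by 0.51 ± 0.16 (SE), and its call was lost without animal 4 (adjusted p 0.0821, edgeR) or animal 11 (0.0588), with log2 fold changes of 0.41 and 0.36. Of 10 microglial genes, Csf1r and Cx3cr1 rose, by 0.52 ± 0.12 and 0.35 ± 0.13 (SE), and Cx3cr1 lost its call when any animal but animal 5 was left out (adjusted p 0.0562 to 0.147, edgeR), with log2 fold changes of 0.28 to 0.37, and of 0.56 without the 4 animals.

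Of 12 vascular genes, 2 were higher and 1 lower, a share not far from that of all genes (35%), and 0 and 1 of 11 without animals 1, 3, 5 and 11. Acta2, the actin of smooth muscle, rose by 1.27 ± 0.23 (SE), Vtn, a pericyte product, rose by 0.44 ± 0.14 (SE), and Rgs5, also of pericytes, had a log2 fold change of -0.58 ± 0.13 (SE). The call of Vtn was lost without animal 3, 4 or 12 (adjusted p 0.0514 to 0.0957, edgeR), with log2 fold changes of 0.33 to 0.43. Col1a2, a fibroblast collagen and the meningeal marker with enough counts to be tested, was at 81.4 and 53.5 CPM in the prefrontal libraries of animals 3 and 11 and at 16.6 to 49.7 CPM in the other 5. It rose by 1.64 ± 0.34 (SE), and by 1.04 without those animals.

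Markers of migrating neuroblasts and of the olfactory bulb moved with the same libraries. Dlx1, a factor of GABA neurons and their precursors, was at 205 CPM in the prefrontal library of animal 3 and at 33.1 to 84.2 CPM in the other 6, all above the cortex. Its log2 fold change was 1.71 ± 0.29 (SE), and 0.91 without the 4 animals. Dcx, a microtubule protein of migrating neurons, rose by 1.41, and by 0.98 without them. The call of Cdhr1 (adjusted p 0.0229, edgeR) was lost without animals 3 and 11 (adjusted p 0.896) and without either alone (0.123 and 0.118).

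Markers of the claustrum and insula gave no call among 5 tested at an adjusted p under 0.05. Synpr, a synaptic vesicle protein, had a log2 fold change of 0.05, which became -0.56 without animals 3 and 11 (adjusted p 0.0119, edgeR). Gnb4 and Lxn had log2 fold changes of 0.39 and -0.33. Prox1, the hippocampal marker with enough counts, had 0.38 (adjusted p 0.170, edgeR). Of 4 thalamic genes, Slc17a6, the vesicular glutamate transporter 2, had a log2 fold change of -1.42 ± 0.24 (SE) and the orphan receptor Rora one of -1.18 ± 0.13 (SE), both also expressed in cortex. The kinase Prkcd rose by 1.19 and lost its call without animal 1 (log2 fold change 0.77, adjusted p 0.100, edgeR). Trpc4, a cation channel of the septal list, rose by 0.91, and its call was lost without animal 1 or animal 3 (log2 fold changes 0.71 and 0.65, adjusted p 0.0819 and 0.0921, edgeR).

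Of 9 genes of cortical excitatory neurons, 3 fell and none rose, and without animals 1, 3, 5 and 11, 4 fell and 2 rose. Beside Emx1 these were Nrgn, the calmodulin-binding protein neurogranin, at 2243 ± 406 and 918 ± 393 CPM (SD, n = 7 each) with no overlap, and Camk2a, the kinase of excitatory synapses, at 4261 ± 559 and 2826 ± 992 CPM. Camk2a fell in 6 of 7 animals and had a log2 ratio of 0.24 in animal 11.

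Whether the regional difference itself differed between genotypes was tested as an interaction in the same 14 libraries. edgeR called 5 genes of 10049 (0.0498%), and 631 had an unadjusted p under 0.05, where 502.45 are expected if p-values are even. Nxph3, a neurexin ligand of deep layer neurons, was at 66.5, 128, 96.0 and 80.7 CPM in the prefrontal cortex of KO animals 1, 4, 5 and 6 and at 5.43, 4.05 and 27.9 CPM in that of WT animals 3, 11 and 12. In the cortex it was at 11.3, 23.98, 8.25 and 10.4 CPM in KO and 3.27, 11.9 and 29.1 CPM in WT animals. The genotypes did not overlap in the prefrontal cortex and did in the cortex. The mean within-animal log2 ratio was 2.67 in KO and -0.25 in WT animals, and edgeR's separate estimate of the interaction was 3.04 ± 0.47 (SE, adjusted p 0.0319). Both prefrontal libraries with olfactory bulb markers were WT and both highest in striatal markers were KO, so genotype and these markers cannot be told apart in this test.

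The other 4 were Ptgds, a prostaglandin D synthase abundant in meninges, Slc13a3, a dicarboxylate transporter, Ppp1r1b, the striatal phosphoprotein DARPP-32, and the kinase Camk4. Ptgds was at 1496, 1056 and 584 CPM in the WT prefrontal libraries of animals 3, 11 and 12 and at 174 to 253 CPM in the KO ones. Those WT libraries were also the 3 highest in summed meningeal markers, at 232, 149 and 119.6 CPM against 29.3 to 80.3 CPM in KO, and the part of these in the result was not tested. Ppp1r1b was at 411, 225, 582 and 224 CPM in KO animals 1, 4, 5 and 6 and at 44.3 to 99.4 CPM in WT, and summed striatal markers were also higher in the KO prefrontal libraries, at 1210.1 to 3217 CPM against 662 to 797 CPM. Slc13a3 ranged from 9.17 to 13.6 CPM in KO and from 26.9 to 64.2 CPM in WT, and Camk4 from 49.9 to 68.9 and from 30.7 to 39.7 CPM.

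**Figure D5:**
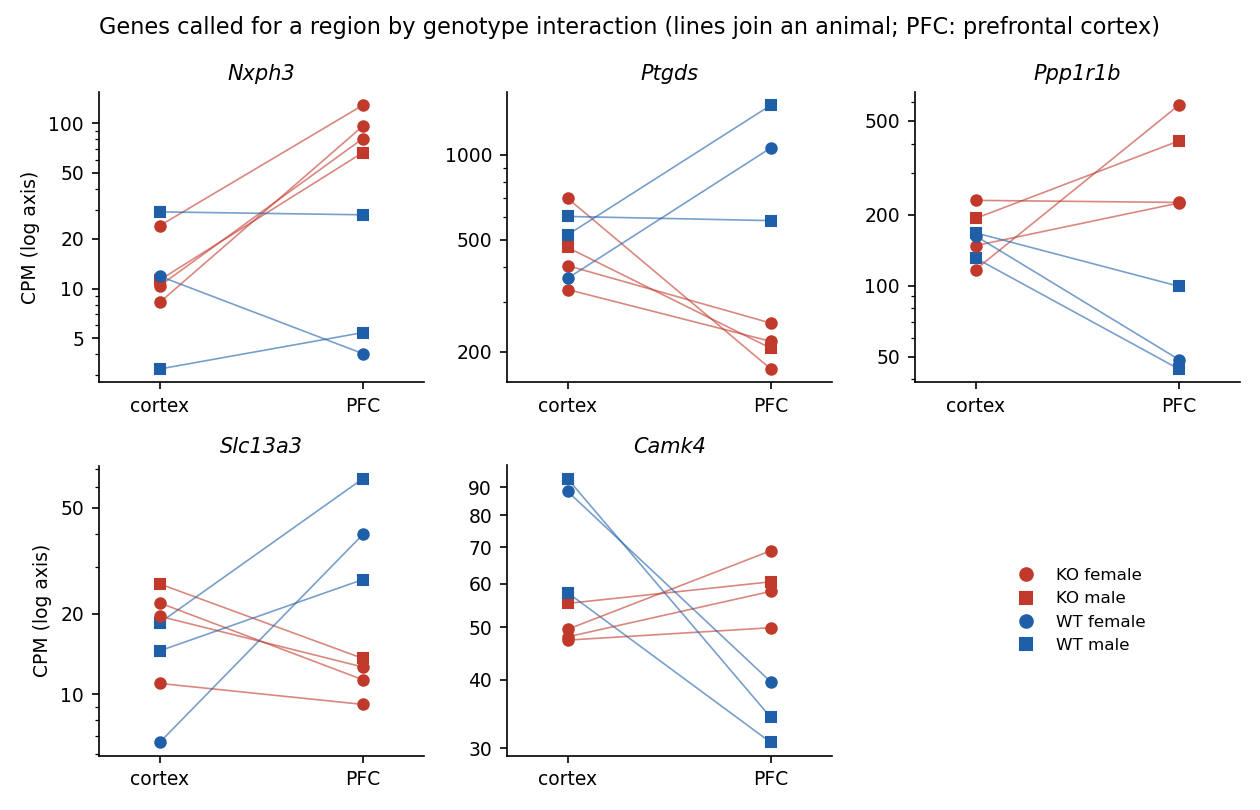
CPM on log axes in the cortex and the prefrontal cortex (PFC) of each animal for the 5 genes called in the interaction of region and genotype, with a line joining the libraries of an animal. Red KO and blue WT points separate in the prefrontal cortex for each gene, and in the cortex they overlap for each but Camk4.

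These 5 calls depended on single animals. No gene was called without animal 1, 6 or 11, 4 without animal 4 or animal 5, 13 without animal 3 and 31 without animal 12. Leaving out animals 3 and 11, or 1 and 5, also gave no call. The adjusted p of Nxph3 was 0.208 without animals 3 and 11 and 0.313 without animals 1 and 5 (edgeR), while its estimate was 2.82 and 2.89. An interaction of region and sex was called for no gene by edgeR (0%), with 352 genes at an unadjusted p under 0.05, and for 1 gene by DESeq2. KO and sex overlap in this set, since 3 of the 4 KO animals and 1 of the 3 WT animals were female.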

How the data were processed

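The authors deposited raw read counts per gene symbol, 1 table for each sex, from poly(A) libraries made of 300 ng total RNA per the labels' protocols. The submitters' processing notes name STAR 2.5.2a, SAMtools 1.1, HTSeq 0.6.1, DESeq2 and R 4.0.2 and the builds GRCm38 and mm10, without the role of each; counting settings and strand use are not given in the sources used here, so overlapping and antisense genes cannot be told apart. Region, genotype, sex and animal came from sample titles, which name 1 animal for both regions. Deviations of an animal's libraries from their group means correlated weakly (mean r 0.0693, from -0.0556 to 0.205), and the block rests on the labels.

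Counts were tested with edgeR 4.0.16 (limma 3.58.1, R 4.3.3), quasi-likelihood, TMM scaling, filterByExpr (minimum count 10, minimum total 15), animal as a block, Benjamini-Hochberg adjustment over 10049 genes and a threshold of 0.05. CPM of single genes uses TMM-scaled totals, and sums over a list use total counts without TMM scaling. The floor of 3 counts covers counting error only, since reads carry no molecular identifiers. Positions came from GENCODE M21 (GRCm38) by symbol, in which 53186 of 55367 symbols had a unique entry. The members and gene lists (26 lists, 320 genes) were chosen with earlier results of these data known, and lists were read by counts, without a list test. Besides the 28 leading genes, up to 6 called members of each list were named, or its most counted members where fewer than 2 were called. Alternatives were DESeq2 1.42.0 (Wald test or size factors), no low-count filter, a test against a fold of 1.5, no block, marker scores as covariates, length and GC offsets, single sexes and genotypes, and animals left out. Leaving out animals 3 and 11, animals 1 and 5, or all 4 was chosen after seeing the data, as were the genes named for an interaction. The fits were tested on simulated data. Some results are not reported here. In 8 pairs, libraries of the same group differed by 1.93 to 5.02 chi-square per gene, so none was a copy.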

Additional observations from a re-analysis of the deposited data

Results flagged for a closer look

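For 145 within-animal log2 ratios, of named genes and of list means, the highest or lowest of the 7 animals was compared with the rest by Dixon's test at 95%, which chance exceeds in about 1 of 20. It marked 6, where chance gives 7.25. In animal 3, Adra1a had a log2 ratio of 1.92 against 0.53 to 1.05 in the other 6. In animal 11, the layer 5 list had a mean log2 ratio of 0.011 against 0.51 to 0.78 in the other 6. Also in animal 11, Chrnb2 had a log2 ratio of -0.12 against 0.48 to 0.90, Rgs5 0.29 against -0.89 to -0.50, and Camk2a 0.24 against -1.12 to -0.56. In animal 6, Lxn had -0.87 against -0.41 to -0.11. Of these 6, 5 belonged to animals 3 and 11, whose prefrontal libraries hold the olfactory bulb markers, and the part of those markers was not tested.

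The regional difference differed between KO and WT animals for 5 genes in edgeR's interaction test, with log2 differences (KO minus WT) of 3.04 for Nxph3, -2.14 for Ptgds, 2.29 for Ppp1r1b, -2.43 for Slc13a3 and 1.41 for Camk4. Their adjusted p-values were 0.0319, 0.0400, 0.0408, 0.0408 and 0.0489 in the same order. DESeq2 called Nxph3 alone (adjusted p 0.00469) and gave 0.363 for the other 4.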

How the results depend on the processing

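The 28 leading genes kept their call and direction under all 23 alternatives. They were chosen for large fold changes from these same libraries, so this was likely from the start and is no separate support. Of up to 115 named genes, from 0 (DESeq2 size factors) to 52 (fold of 1.5) lost their call under an alternative. The 3519 calls between regions became 2257 with the DESeq2 Wald test, 292 against a fold of 1.5, 1961 with the striatal score as a covariate, 986 in male, 2066 in female and 539 in WT animals alone, and 2326 without animals 1, 3, 5 and 11; smaller sets hold fewer animals. Other alternatives stayed within 1.5 times, and leaving out each animal in turn gave 2740 to 3655. Without the replicate block the count was 3566. Length and GC offsets lowered the share of higher genes among calls from 50.8% to 44.8%.

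The 5 calls of region by genotype became 1 with DESeq2, 104 without a low-count filter, 0 to 31 leaving out each animal, 0 without animals 3 and 11 and 0 without animals 1 and 5. The 0 calls of region by sex (352 at an unadjusted p under 0.05) became 1 with DESeq2, 21 without a filter, 0 to 3 leaving out each animal and 4 without animals 3 and 11. Log2 fold changes turned sign for Acss2 (0.014 without animals 1, 3, 5 and 11), for Cldn11, Fa2h and Trf (-0.10, -0.11 and -0.036 in WT alone), for Cdhr1 (-0.45 in KO alone, -0.076 without animals 3 and 11), for Lxn (0.043 with length and GC offsets) and for Synpr (0.05 in all 7 animals, -0.21 to 0.25 leaving out each animal, with -0.18 without animal 3 and the lowest without animal 11, -0.68 in KO alone, -0.56 without animals 3 and 11 and -0.63 without 4 animals). The cause was not tested. Genes that did not pass the low-count filter (minimum count 10, minimum total 15) were not tested in the main fit. Some of them were well above the floor of 3 counts in single libraries.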

Other observations

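The library labelled prefrontal cortex of animal 23 (817209 counts), whose label is in doubt and which chose none of the genes, was set beside the cortex libraries of animals 2, 10, 13 and 24, which lack a paired prefrontal library. Of the 14 leading higher genes, 13 were above all 4 of these cortex libraries, and all 14 leading lower genes were below them. The same count over all genes tested is not given here, so these counts have no share to be read against. Crym was at 139 CPM in it against 15.8 to 29.8 CPM, Nos1 at 135 against 21.6 to 34.7 CPM and Col6a1 at 138 against 20.5 to 59.5 CPM. Pvalb was at 14.2 CPM against 101.9 to 179.9 CPM and Syt2 at 3.54 against 90.3 to 134 CPM. The exception was Sema5b, at 15.3 CPM against 5.76 to 15.7 CPM. Its olfactory bulb markers summed to 8.57 CPM and its striatal markers to 821 CPM, both within the range of the 7 prefrontal libraries compared. With 1 such library there is no replicate and no test.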
